A study of Mus musculus with 36 samples.

Results

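The Hox cluster genes were chosen by symbol: every gene row whose name was Hoxa, Hoxb, Hoxc or Hoxd followed only by digits. The rule expected 39 genes and 38 were found among the 39017 rows of the count table, 11 Hoxa, 10 Hoxb, 9 Hoxc and 8 Hoxd genes, while Hoxd4 was not analysed here. No expression value entered the choice. The RNA came from pancreatic fibroblasts of C57BL/6 mice and was sequenced in 9 groups of 4 libraries. In 1 group the fibroblasts grew as a mono-culture. In the other 8 they grew for 48 h in direct contact with tumor cells, 1 group each for the tumor sub-clones E, H, K, M, N, T and V and 1 for KPC1, a designation left unexplained in the labels, and were then parted by flow sorting from the tumor cells, which carried GFP. No label says whether the 4 libraries of a group came from separate cultures or animals, so the p-values measure the spread between these libraries, which may be technical.

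Hox genes encode homeodomain transcription factors that give cells along the body axis their regional identity. In the mouse they lie in 4 clusters, and genes at matching places in different clusters share a paralogue number. Low numbers sit at the 3′ end of a cluster and act toward the head, high numbers sit at the 5′ end and act toward the tail, and fibroblasts of adult organs keep part of this positional code in culture. HOX proteins bind DNA together with TALE homeodomain partners (PBX, MEIS and PKNOX), while Polycomb proteins hold Hox clusters silent and Trithorax proteins keep them active.

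On the mouse build GRCm38 (mm10), the GENCODE annotation placed the Hoxa genes on the minus strand at chr6:52155590-52260880, a span of 105.3 kb, and the Hoxb genes on the plus strand at chr11:96194316-96368256, which is 173.9 kb. The Hoxc genes covered 115.8 kb of the plus strand at chr15:102921103-103036852, and the Hoxd genes covered 96.8 kb of the plus strand at chr2:74668310-74765142. RefSeq gave the bases upstream of a start on GRCm38.p6 for 21 of the 38 symbols, 9 of them with enough reads to be tested here. The 250 bases before the start are printed for the 5 of these 9 genes that differed among the co-cultures and whose window held no annotated exon: in Hoxa2, Hoxa5, Hoxb4 and Hoxb8 the level was highest with clone K or clone M, and in Hoxa9 it was highest with KPC1. Capitals mark matches on either strand to CCAAT, to TATAAA and to TGATTNAT, a form of the site bound by HOX and PBX together, and no match overlapped another.
Hoxa2, chr6:52164832-52165081 (- strand): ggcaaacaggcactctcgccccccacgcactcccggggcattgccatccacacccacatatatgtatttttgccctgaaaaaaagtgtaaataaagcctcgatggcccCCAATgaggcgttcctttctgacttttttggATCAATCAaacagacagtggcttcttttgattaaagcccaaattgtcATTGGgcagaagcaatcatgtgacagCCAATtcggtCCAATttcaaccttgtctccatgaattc
Hoxa5, chr6:52204588-52204837 (- strand): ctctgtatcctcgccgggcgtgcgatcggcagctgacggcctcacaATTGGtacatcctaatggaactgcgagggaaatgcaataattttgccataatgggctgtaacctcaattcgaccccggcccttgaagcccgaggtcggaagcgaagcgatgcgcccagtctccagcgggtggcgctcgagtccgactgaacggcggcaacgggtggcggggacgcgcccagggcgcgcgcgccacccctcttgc
Hoxa9, chr6:52227371-52227620 (- strand): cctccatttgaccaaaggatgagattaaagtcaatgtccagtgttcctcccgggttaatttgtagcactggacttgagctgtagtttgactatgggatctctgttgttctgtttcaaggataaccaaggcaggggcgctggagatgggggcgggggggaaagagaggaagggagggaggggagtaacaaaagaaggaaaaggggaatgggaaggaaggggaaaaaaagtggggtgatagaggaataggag
Hoxb4, chr11:96318017-96318266 (+ strand): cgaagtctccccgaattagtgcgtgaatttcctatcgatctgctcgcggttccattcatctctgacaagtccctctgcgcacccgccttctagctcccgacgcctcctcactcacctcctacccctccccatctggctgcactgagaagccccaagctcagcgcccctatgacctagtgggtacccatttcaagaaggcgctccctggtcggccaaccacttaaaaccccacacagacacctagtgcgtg
Hoxb8, chr11:96281655-96281904 (+ strand): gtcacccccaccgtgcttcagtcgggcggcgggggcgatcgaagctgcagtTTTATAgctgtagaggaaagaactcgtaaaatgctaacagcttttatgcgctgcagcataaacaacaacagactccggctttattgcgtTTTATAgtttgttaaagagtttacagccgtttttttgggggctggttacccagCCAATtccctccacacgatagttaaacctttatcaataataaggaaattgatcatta

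CCAAT occurred in the windows of Hoxa2 (4 matches), Hoxa5 (1 match) and Hoxb8 (1 match), and in 33.8% of all 32851 mouse windows of this length. TATAAA was found in the Hoxb8 window alone of these 5, with 2 matches, and in 12.4% of all windows. TGATTNAT was present once, in Hoxa2, and in 2.82% of all windows. CpG dinucleotides numbered 6 in Hoxa2, 28 in Hoxa5, 3 in Hoxa9, 14 in Hoxb4 and 12 in Hoxb8, beside a median of 6 over all windows. The Hoxa9 window lay inside the annotated gene, upstream of an internal start. These matches describe letters only, and no binding was measured.

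Library totals ran from 12532122 to 21985538 counts, and a floor of 3 counts corresponded to 0.136 to 0.239 CPM (counts relative to the scaled library total over the 14439 genes tested), a floor that covers counting error only. Each of 10 fibroblast markers was detected in every group, and some markers of other cell types were too. Among the immune markers, Cd3e was at 0 in every library and Ptprc never passed 3 counts, but Cd68 had 20 to 306 counts and Lyz2 0 to 82. Of 4 endothelial markers, Cdh5 never passed 2 counts, Kdr had 8 to 91 counts, Pecam1 2 to 30 and Tek 1 to 22. Of 6 acinar and islet markers, Ins1 and Ins2 were at 0 and Gcg, Cpa1 and Ctrb1 never passed 3 counts, but Cela1 had 34 to 231. The summed CPM of 11 epithelial markers, 3 of which were at 0 in the mono-culture, was 1.14 to 1.71 in mono-culture libraries and 18.3 to 801 in co-culture libraries. In bulk RNA, fewer cells that express a gene and less of its RNA per cell cannot be told apart.

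The fibroblasts expressed the Hoxa and Hoxb clusters and almost no Hoxc or Hoxd RNA. Of the 38 genes, 18 passed the filter on low counts and were tested, and the same 18 reached a mean of 1 CPM or more. In the Hoxa cluster 9 of 11 genes were expressed, among them Hoxa2 to Hoxa7, Hoxa9 and Hoxa10. Expressed Hoxb genes were Hoxb2 to Hoxb9 and Hoxb13, 9 of 10. None of the 9 Hoxc genes and none of the 8 Hoxd genes passed.

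The other members had few reads. Hoxa11 and Hoxa13, the genes at the 5′ end of the Hoxa cluster with roles in limb and urogenital patterning, never exceeded 5 and 4 counts in a library. Hoxb1, a hindbrain segment gene, was at 0 in all 36 libraries, which allows up to 0.239 CPM in the shallowest of them. Within Hoxc, Hoxc4 had the highest level per length, and its counts ran from 0 to 7 with 9 of 36 libraries above 3 counts. The 9 Hoxc genes together summed to 318 counts over the 36 libraries. In the Hoxd cluster Hoxd3, Hoxd8 and Hoxd12 each had 1 count in 1 library, and the other 5 of its 8 genes were at 0 throughout. Over all clusters, 7 genes were at 0 in every library.

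**Figure D1:**
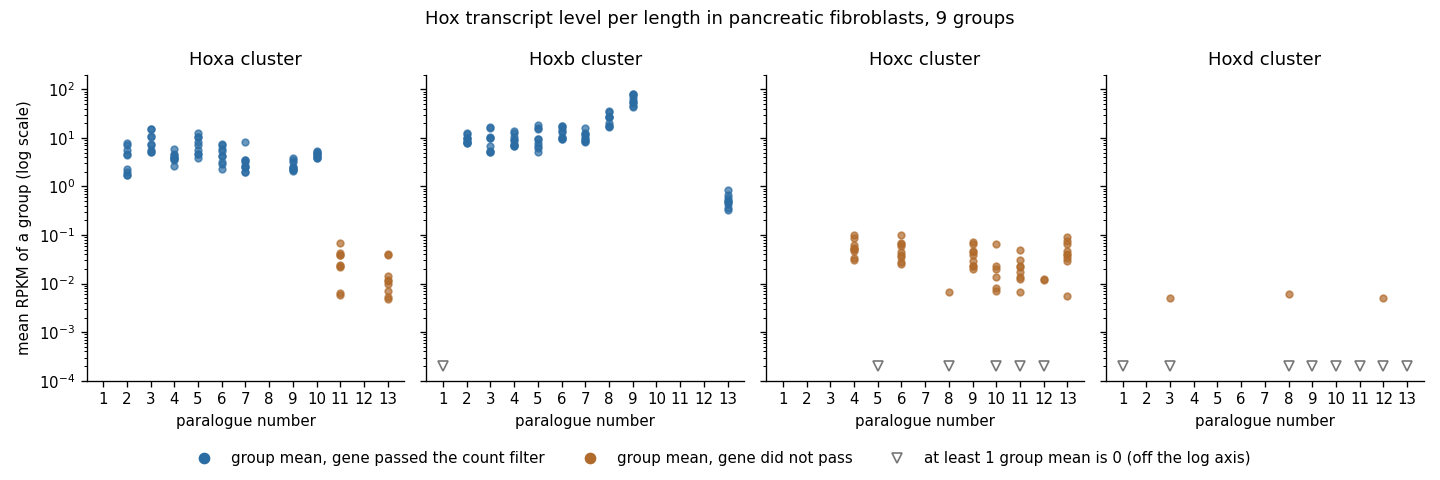
Mean RPKM of each Hox gene in each of the 9 groups (points, log axis) against paralogue number, 1 panel per cluster; blue genes passed the count filter, brown genes did not, and open triangles mark genes with at least 1 group mean of 0. 17 of the 18 expressed genes are plotted, and those from Hoxa2 to Hoxa10 and from Hoxb2 to Hoxb9 lie between 1.72 and 81.3 RPKM, while no Hoxc or Hoxd group mean exceeds 0.101 RPKM.

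Per length, Hoxb9 was the most abundant Hox transcript. This gene of the thoracic skeleton and rib cage had a mean of 62.2 RPKM (reads per kilobase of transcript, scaled to library size) over the 36 libraries, and its neighbor Hoxb8, known from spinal cord and blood cell development, came next with 25.1 RPKM. Hoxb6, a marker of lateral mesoderm, read 13.1 RPKM. Hoxb7, Hoxb5, Hoxb2, Hoxb3, Hoxb4 and Hoxa3 followed in the narrow range from 9.18 to 10.8 RPKM, and no order is given for these 6, whose group means overlapped widely (5.05 to 16.6 RPKM for Hoxb3 alone). Hoxa5 stood at 7.54 RPKM, and Hoxa6, Hoxa10, Hoxa2, Hoxa4, Hoxa7 and Hoxa9 filled the range from 2.72 to 4.83 RPKM. Hoxb13, at the low end of the expressed range, had 0.518 RPKM.

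Summed over a cluster, Hoxb RNA exceeded Hoxa RNA in every group. In mono-culture the Hoxa sum was 50.2 ± 1.10 RPKM and the Hoxb sum 159 ± 10.7 RPKM (mean ± SD, n = 4, as for all such values). The Hoxa sum was highest with clone M at 58.4 ± 4.18 RPKM and clone K at 57.2 ± 2.50 RPKM. With clone H it read 28.5 ± 5.55 RPKM, with clone V 28.5 ± 1.54 RPKM and with KPC1 27.5 ± 2.52 RPKM. The Hoxb sum moved less, from 137 ± 13.8 RPKM with clone T to 187 ± 10.3 RPKM with clone K. Hoxb9 made up 21.7% to 28.3% of all Hox RPKM in mono-culture libraries and 18.7% to 20.6% with clone M. Its share was 39.9% to 51.5% with clone H, 35.2% to 47.3% with clone T, 44.4% to 49.1% with clone V and 39% to 53.3% with KPC1. These 4 ranges lay wholly above that of the mono-culture, and the clone M range lay wholly below it.

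The expressed Hox genes differed over the 9 groups almost without exception, in a table where most genes did. By edgeR's quasi-likelihood F-test with Benjamini-Hochberg adjustment over all genes tested, 17 of 18 members passed an adjusted p of 0.05 (94.4%), beside 78.6% of all genes, and the exception was Hoxa10 (adjusted p = 0.057). Among the 8 co-cultures, in a test that left the mono-culture level out, 16 of 18 passed (88.9%), beside 72% of all genes, and Hoxa10 and Hoxb13 (adjusted p = 0.11 and 0.07) did not. Hoxa10 passed over the 9 groups without clone H, KPC1 or clone T replicate 4 (adjusted p = 0.0094, 0.02 and 0.041) and among the co-cultures without clone H or KPC1 replicate 4 (adjusted p = 0.023 and 0.043), and Hoxb13 passed among the co-cultures without clone M replicate 3 or clone V replicate 1 (adjusted p = 0.049 and 0.037). The most common order put clones K and M at the top and clones H, T and V and KPC1 at the bottom, with clones E and N between them. Clone K had 1 of the 2 highest group means of the 8 co-cultures in 15 of 18 genes and clone M in 16. Clone H and clone V were among the 4 lowest in 16, KPC1 in 15 and clone T in 14. The order was not counted over all genes, so whether it is particular to the Hox genes was not tested.

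Hoxa3, needed for thymus and parathyroid formation, had the smallest p of all members over the 9 groups (adjusted p = 4.4e-14, and 2.3e-13 among the co-cultures). Its 4 mono-culture libraries read 16.9, 19.3, 19.6 and 16.4 CPM. With clone K they read 37.8, 39.7, 43.5 and 36.4 CPM and with clone M 39.3, 34.98, 38.7 and 38.6 CPM. With clone E the values were 26.9, 30.4, 26.5 and 23.5 CPM and with clone N 27.8, 32.6, 28.4 and 27.3 CPM. All 16 libraries of these 4 co-cultures lay above all 4 of the mono-culture. Such separation was common, since by co-culture 14.2% to 27.4% of all genes lay wholly above the mono-culture and 14.6% to 26.4% wholly below. On the other side, Hoxa3 read 14.6, 12.6, 11.5 and 14.5 CPM with clone H and 12.9, 14.6, 14.8 and 13.2 CPM with clone V. With clone T it read 22.8, 14.8, 20.9 and 20.6 CPM, and with KPC1 15.1, 12.54, 13.98 and 16.9 CPM. The clone H and clone V libraries all fell below the mono-culture range, and those of clone T and KPC1 overlapped it. Hoxa3 thus rose with clone K (log2 fold change 1.13, SE 0.11, adjusted p = 1.6e-08) and fell with clone H (log2 fold change -0.44, SE 0.11, adjusted p = 0.0017), and clone H lay below clone K in the direct comparison (log2 difference -1.56, SE 0.11, adjusted p = 2.6e-11). The smaller fall with KPC1 (log2 fold change -0.30, SE 0.11, adjusted p = 0.023) was lost without KPC1 replicate 2 (adjusted p = 0.098) and without mono-culture replicate 2 or 3 (adjusted p = 0.071 and 0.079).

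Hoxb3, the same paralogue in the Hoxb cluster and the member with the next smallest p, had a similar order. It read 31.6, 25.6, 33.3 and 32.4 CPM in the mono-culture, 31.3, 37.4, 33.3 and 28.01 CPM with clone E and 37.3, 35.6, 28 and 27.6 CPM with clone N. With clone K the libraries gave 47.2, 58.2, 58.9 and 47.02 CPM and with clone M 53.5, 51.9, 46.4 and 46.8 CPM. The clone K and clone M libraries were all above the mono-culture, whereas those of clones E and N overlapped it. Lower values came with clone H (17.96, 15.2, 14.8 and 20.6 CPM) and clone T (23.7, 19.8, 24.2 and 21.5 CPM). With clone V they were 12.7, 20.6, 17 and 15.6 CPM and with KPC1 14.3, 16.8, 19.6 and 17.7 CPM. In these 4 co-cultures no library reached the lowest mono-culture value. The change was 0.78 (SE 0.13) on the log2 scale with clone K (adjusted p = 6.8e-05), while with clone V Hoxb3 fell (log2 fold change -0.89, SE 0.14, adjusted p = 1.8e-06).

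Hoxb5, a gene of the enteric neural crest and gut mesenchyme, was low with the same lines as Hoxb3 and also with clones E and N. It read 28.2, 27.8, 25.2 and 27.5 CPM in the mono-culture, 27.6, 37.4, 40.7 and 34.4 CPM with clone K and 32.3, 34.2, 26.3 and 24.9 CPM with clone M. Neither of these co-cultures passed the test against the mono-culture, and their libraries overlapped it, but with clone K (log2 fold change 0.37, adjusted p = 0.07) Hoxb5 passed without clone K replicate 1 (log2 fold change 0.46, adjusted p = 0.026). With clone E it was 18.2, 19.3, 17.7 and 16.7 CPM and with clone N 18.9, 21.9, 16.9 and 14.6 CPM. Values with clone H were 9.70, 9.04, 9.24 and 11.8 CPM, and with clone T 13.6, 15.3, 15.6 and 14.3 CPM. With clone V they were 10.7, 14.5, 11.7 and 10.9 CPM and with KPC1 11.8, 18.6, 11.4 and 11.5 CPM, where 1 library stood above the other 3. All 24 libraries of these 6 co-cultures lay below the 4 of the mono-culture, and the deepest fall was with clone H (log2 fold change -1.45, SE 0.15, adjusted p = 3.5e-09).

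Hoxa5, which patterns the airway and the lower neck, read 18, 20.7, 19.3 and 16.7 CPM in the mono-culture, 19.6, 20.02, 18.4 and 20.97 CPM with clone K and 25.8, 22.8, 20.5 and 22.4 CPM with clone M. With clone E it read 14.4, 19.4, 12.6 and 16.1 CPM. None of these 3 co-cultures passed the test against the mono-culture, although clone E did without clone E replicate 2 (log2 fold change -0.37, adjusted p = 0.043). Falls were called with clone N (14.2, 14.6, 12.49 and 12.2 CPM) and clone T (11.3, 10.2, 9.61 and 11.8 CPM). They were also called with clone H (9.76, 9.34, 6.30 and 10.1 CPM), clone V (9.004, 10.1, 7.25 and 8.79 CPM) and KPC1 (6.01, 7.90, 8.19 and 7.98 CPM). In these 5 co-cultures all 20 libraries lay below the mono-culture, and with KPC1 the fall was deepest (log2 fold change -1.31, SE 0.14, adjusted p = 3.1e-09).

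Hoxa2, a selector of hindbrain and pharyngeal arch identity, had the widest range of group means among the 18 members, 4.46 times between clone K and clone H. It read 10.1, 9.63, 10.1 and 8.91 CPM in the mono-culture, 14, 13.3, 11.7 and 16.1 CPM with clone K and 14.5, 12.2, 11.3 and 11.5 CPM with clone M. With clone E it read 7.57, 10.6, 6.62 and 8.23 CPM and with clone N 10.6, 6.82, 6.85 and 7.43 CPM. Clone K and clone M libraries were all above the mono-culture, yet neither difference passed (log2 fold change 0.51 and 0.35, adjusted p = 0.1 and 0.27). Values with clone H were 3.41, 2.42, 1.75 and 4.76 CPM and with clone T 5.39, 2.86, 4.32 and 3.65 CPM. With clone V they were 2.54, 4.81, 3.11 and 3.77 CPM and with KPC1 3.16, 3.38, 2.10 and 3.82 CPM. All 16 of these libraries were below the mono-culture, and the fall was deepest with clone H (log2 fold change -1.64, SE 0.23, adjusted p = 8.4e-07).

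**Figure D2:**
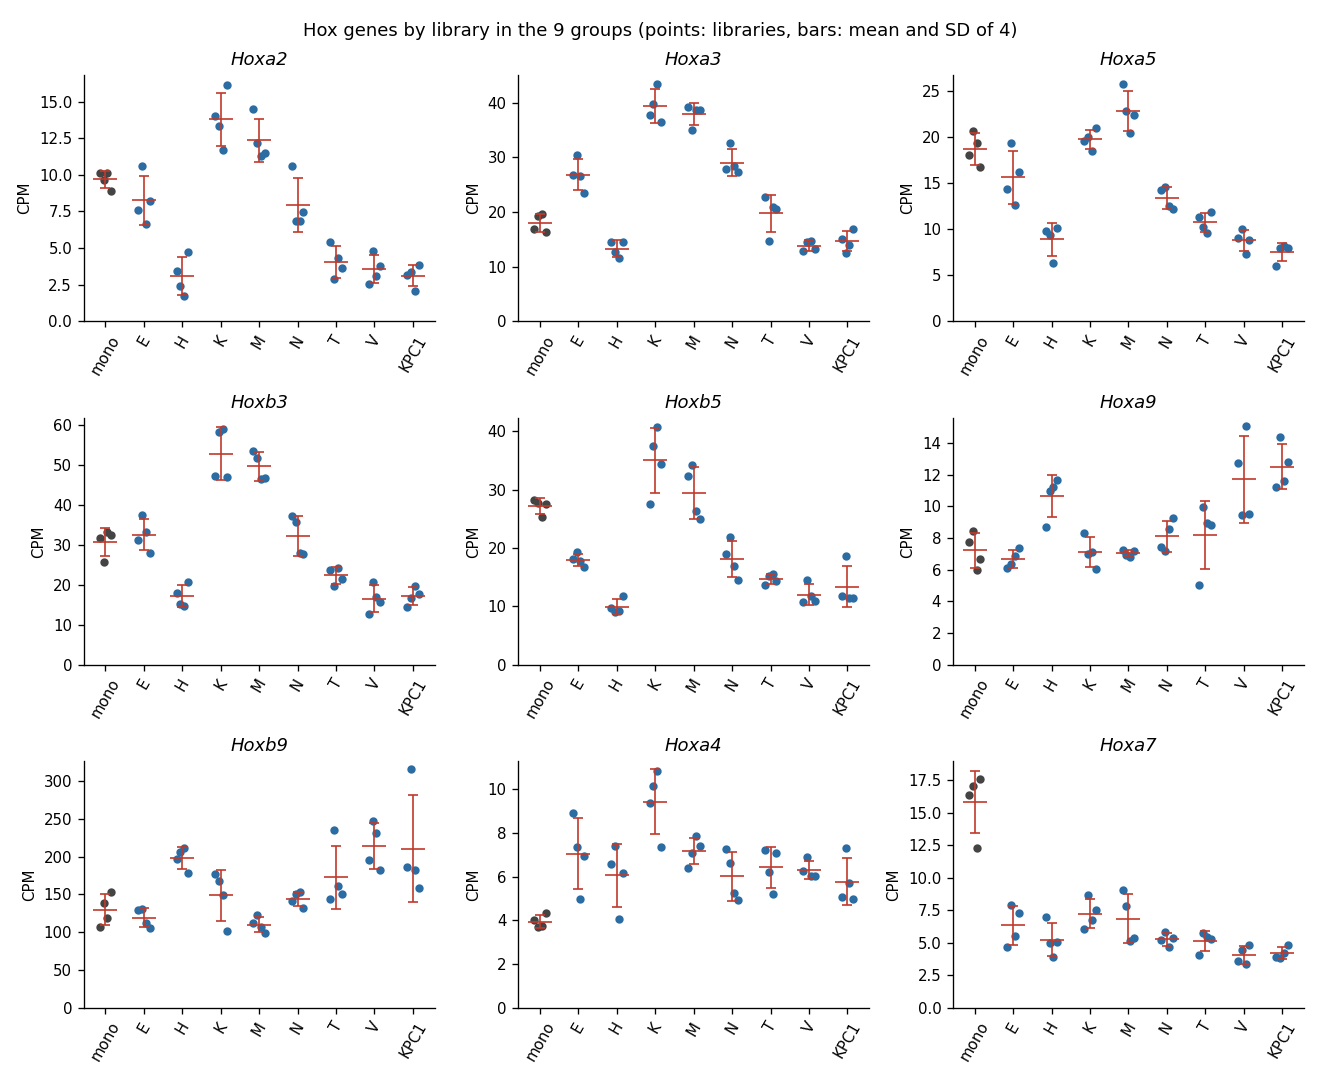
CPM of 9 Hox genes in each library (points) of the 9 groups, with the mean and SD of 4 libraries in red; every vertical axis starts at 0. Hoxa2, Hoxa3, Hoxa5, Hoxb3 and Hoxb5 are highest with clones K and M, Hoxa9 and Hoxb9 are highest with clone V or KPC1, Hoxa7 is lower in all 32 co-culture libraries than in any mono-culture library, and Hoxa4 is higher in 31 of 32.

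Hoxb9 and Hoxa9, the paralogues with number 9, took the opposite direction. Hoxb9 read 107, 139, 119 and 154 CPM in the mono-culture, 129, 131, 112 and 105 CPM with clone E and 112, 122, 107 and 99.2 CPM with clone M. With clone K it was 176, 168, 149 and 102 CPM and with clone N 141, 150.1, 153 and 132 CPM. None of these 4 co-cultures passed against the mono-culture, and the libraries overlapped. With clone H it was 198, 207, 211 and 179 CPM and with clone V 195, 247, 232 and 183 CPM. With KPC1 the libraries gave 186, 316, 182 and 158 CPM and with clone T 145, 235, 162 and 150.3 CPM. Hoxb9 rose with clone V (log2 fold change 0.73, SE 0.17, adjusted p = 0.00062), clone H (log2 fold change 0.61) and KPC1 (log2 fold change 0.70), where every library lay above the mono-culture. The rise with clone T (log2 fold change 0.41, SE 0.17, adjusted p = 0.046) had overlapping libraries. It was lost without clone T replicate 2 (log2 fold change 0.24, adjusted p = 0.27) and without mono-culture replicate 1 or 3 (adjusted p = 0.15 and 0.096). It also missed the threshold with library totals alone (adjusted p = 0.084), where 1 member was higher with clone T in place of 2. That count was also 1 with no filter, with a mean of at least 1 CPM and under each limma setting.

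Hoxa9, a gene of blood stem cells and the leukemias that arise from them, read 7.76, 8.47, 6.01 and 6.67 CPM in the mono-culture. With clone H it read 8.68, 10.96, 11.2 and 11.7 CPM, with clone V 12.8, 9.48, 15.1 and 9.51 CPM and with KPC1 11.2, 14.4, 11.6 and 12.8 CPM. Each of these 12 libraries was above all 4 mono-culture libraries, and the rise was largest with KPC1 (log2 fold change 0.79, SE 0.16, adjusted p = 0.00013). With clones E, K and M the libraries ran from 6.03 to 8.30 CPM, and with clone N they were 7.42, 7.15, 8.60 and 9.24 CPM. With clone T they were 5.05, 9.95, 8.96 and 8.80 CPM, where 1 library lay below the mono-culture and 3 above. Hoxa9 was lower with clone K than with KPC1 (log2 difference -0.82, SE 0.16, adjusted p = 0.0001), the reverse of Hoxa3 in the same pair (log2 difference 1.43, SE 0.11, adjusted p = 7.5e-11).

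Hoxa7 and Hoxa4 changed in one direction with every tumor line. Hoxa7, which acts in the thoracic region, read 16.4, 17.1, 12.3 and 17.6 CPM in the mono-culture, 4.69, 7.91, 5.52 and 7.28 CPM with clone E and 6.04, 8.64, 6.71 and 7.51 CPM with clone K. With clone M it read 9.06, 7.83, 5.16 and 5.37 CPM, with clone N 5.24, 5.85, 4.63 and 5.33 CPM and with clone T 4.04, 5.77, 5.46 and 5.26 CPM. The 32 co-culture libraries all lay below the mono-culture. With clone H it was 6.95, 4.95, 3.92 and 5.06 CPM, with clone V 3.61, 4.48, 3.38 and 4.79 CPM and with KPC1 3.90, 3.86, 4.19 and 4.85 CPM. Hoxa7 had the lowest log2 fold change of all members for the mean of the 8 co-cultures (-1.54, SE 0.12, adjusted p = 9.7e-12) and the single falls ran from -1.14 with clone K to -1.96 with clone V. The 8 comparisons share the same 4 mono-culture libraries, so they are not independent.

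Hoxa4, a gene of the neck vertebrae, was the reverse. It read 4.02, 3.69, 3.73 and 4.34 CPM in the mono-culture, 9.38, 10.1, 10.8 and 7.38 CPM with clone K and 8.91, 7.38, 4.97 and 6.96 CPM with clone E. With clone M it was 6.39, 7.11, 7.85 and 7.39 CPM, with clone N 7.27, 6.61, 5.24 and 4.93 CPM and with clone T 7.25, 6.21, 5.19 and 7.08 CPM. Of the 32 co-culture libraries 31 exceeded every mono-culture library, the exception being clone H replicate 3. With clone H it was 6.59, 7.42, 4.08 and 6.15 CPM, with clone V 6.26, 6.88, 6.05 and 6.04 CPM and with KPC1 5.06, 7.30, 5.73 and 4.96 CPM. For the mean of the 8 co-cultures Hoxa4 rose by 0.76 on the log2 scale (SE 0.14, adjusted p = 4e-05), the highest of all members. The rise was called with each line, from 0.54 with KPC1 to 1.25 with clone K, but with KPC1 it was lost without KPC1 replicate 2 (adjusted p = 0.062). Its difference among the co-cultures (adjusted p = 0.0084) was lost without clone K replicate 3 (adjusted p = 0.055).

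Taking the mean of the 8 co-cultures against the mono-culture, 10 of 18 members passed, beside 52.7% of all genes. Hoxa3 and Hoxa4 were higher, and Hoxa2, Hoxa5, Hoxa6, Hoxa7, Hoxb5, Hoxb6, Hoxb7 and Hoxb13 were lower. The median log2 fold change of the 18 members was -0.31, beside 0.01 over all genes. Hoxb7, known from kidney duct development, fell by 0.63 on the log2 scale and Hoxb13, a prostate and tail gene at low level here, by 0.76. Hoxa9, Hoxa10, Hoxb2, Hoxb3, Hoxb4, Hoxb8 and Hoxb9 did not pass, with log2 fold changes from -0.22 for Hoxa10 to 0.31 for Hoxb9. For several of these the mean joined rises and falls, such as Hoxb3 above. Hoxa9 passed without mono-culture replicate 2 or clone T replicate 1 (adjusted p = 0.042 and 0.025), and Hoxa10 without clone H, KPC1 or clone M replicate 4 (adjusted p = 0.028, 0.044 and 0.04). Hoxb9 passed without clone K, KPC1, clone N or mono-culture replicate 4 or without KPC1 or clone T replicate 2 (adjusted p = 0.03 to 0.05).

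The single tumor lines differed in the number and direction of called changes. With clone H 17 members passed (3 higher, 14 lower), beside 54.2% of all genes. With clone V there were also 17 (3 higher, 14 lower), beside 58.3% of all genes. KPC1 gave 15 (3 higher, 12 lower), beside 59%, and clone T 15 (2 higher, 13 lower), beside 49.8%. Hoxa4 and Hoxb9 were among the higher members with each of these 4 lines, and Hoxa9 with clone H, clone V and KPC1. The Hoxb9 call with clone T was the one lost in other fits, as given above.

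Clone K was the line with the smallest share of all genes called, 19.1%, and 7 members passed with it, 6 of them higher. Those 6 were Hoxa3, Hoxa4, Hoxb2, Hoxb3, Hoxb4 and Hoxb8, and the lower one was Hoxa7. Under scaling by library totals alone the count for clone K was 8, with 6 higher. With clone M, beside 23% of all genes, 7 passed, of which Hoxa3, Hoxa4, Hoxb2, Hoxb3 and Hoxb8 were higher and Hoxa7 and Hoxb7 lower. With clone N 8 passed (2 higher, 6 lower), beside 39%, and with clone E 6 (2 higher, 4 lower), beside 32%.

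Of the 92 calls in these 8 comparisons, 18 were lost when 1 library was left out, and all calls of Hoxa2, Hoxa5, Hoxa7, Hoxa9, Hoxb3, Hoxb4, Hoxb5 and Hoxb6 held. Beside the calls of Hoxa3, Hoxa4 and Hoxb9 given above, Hoxb2 was lost without any 1 of the 8 libraries with clone H (adjusted p = 0.056 to 0.15) and without any but clone M replicate 3 with clone M (adjusted p = 0.06 to 0.13). Hoxa10, which patterns the lower spine and uterus, was lost with clone V without any but mono-culture replicate 2 (adjusted p = 0.052 to 0.11). Its call with clone H was lost without clone H replicate 2 or 3 or mono-culture replicate 1 or 3 (adjusted p = 0.053 to 0.12), and with clone T without clone T replicate 1 or mono-culture replicate 3 (adjusted p = 0.065 and 0.05).

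Hoxb13 was lost without mono-culture replicate 2 with clone E, clone N and clone H (adjusted p = 0.24, 0.18 and 0.073). It was also lost with clone E without clone E replicate 1, 2 or 3 or mono-culture replicate 3 (adjusted p = 0.068 to 0.13), and with clone N without clone N replicate 1, 2 or 3 (adjusted p = 0.05 to 0.082). Hoxa6 was lost with clone N without clone N replicate 4 or mono-culture replicate 3 (adjusted p = 0.11 and 0.065), and with clone T without clone T replicate 3 or 4 or mono-culture replicate 3 (adjusted p = 0.06 to 0.072). Hoxb7 was lost with clone E without clone E replicate 3 (adjusted p = 0.053), and with clone M without clone M replicate 3 or mono-culture replicate 2 (adjusted p = 0.077 and 0.052). Hoxb8 was lost with clone M without mono-culture replicate 1 (adjusted p = 0.059) and with clone T without clone T replicate 1 (adjusted p = 0.079). Such fits also gained 4 calls, those of Hoxb5 and Hoxa5 given above, Hoxb4 with clone M without clone M replicate 3 (adjusted p = 0.045) and Hoxa10 with KPC1 without KPC1 replicate 4 (adjusted p = 0.022).

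**Figure D3:**
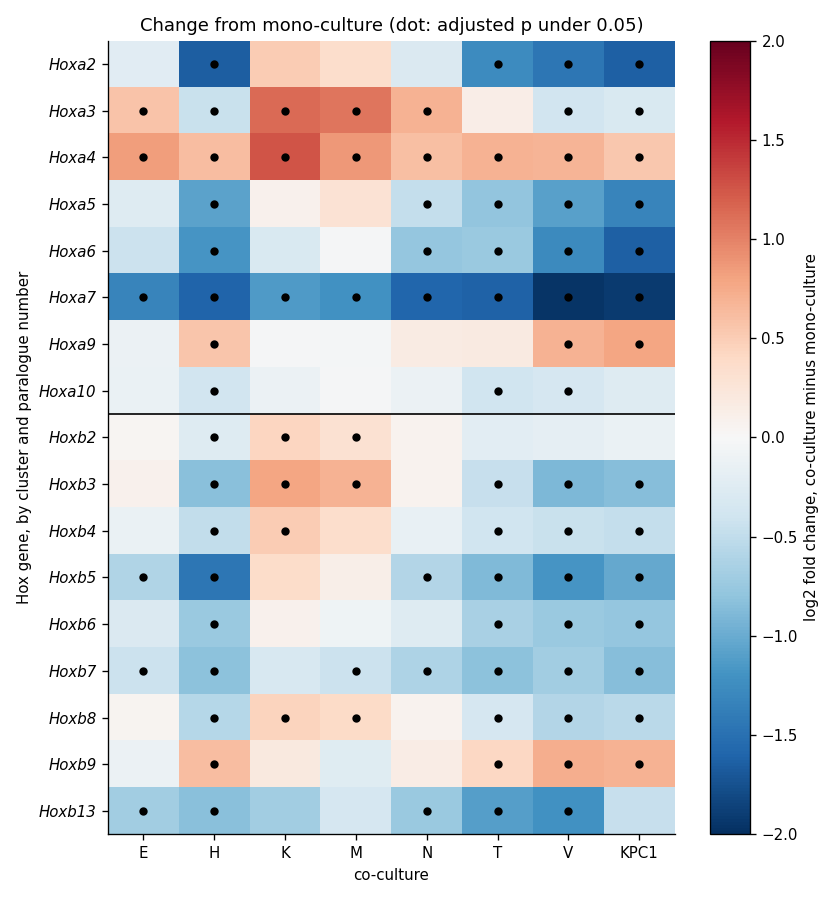
Log2 fold change of 17 of the 18 expressed Hox genes (rows, by cluster and paralogue number) in each co-culture (columns) against the mono-culture; red is higher, blue is lower, and a dot marks an adjusted p under 0.05. The columns of clones H, T and V and KPC1 are mostly blue, the Hoxa4 row is red and the Hoxa7 row blue throughout, and Hoxa9 and Hoxb9 are red with clones H and V and KPC1.

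Genes of different position in the cluster were also set side by side. With clone H, 12 of the members with numbers 2 to 8 fell and Hoxa4 rose, while of the 4 with numbers 9 to 13 Hoxa9 and Hoxb9 rose and Hoxa10 and Hoxb13 fell. The median log2 fold change with clone H was -0.64 for numbers 2 to 3, -0.82 for numbers 4 to 8 and 0.09 for numbers 9 to 13. With clone V the corresponding medians were -0.64, -0.74 and 0.18, and with KPC1 they were -0.57, -0.86 and 0.22. With clone T they were -0.34, -0.74 and -0.11, so the median for numbers 9 to 13 was below 0 there. Clone E gave 0.06, -0.30 and -0.13 and clone N 0.07, -0.48 and 0.02. With clone M the medians were 0.52, 0.12 and -0.14. With clone K they were 0.65 for numbers 2 to 3, 0.08 for numbers 4 to 8 and -0.07 for numbers 9 to 13. These classes were drawn after the values were seen, hold few genes each and were not tested.

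Co-cultures were next compared with each other, which does not involve the mono-culture level. Over the 28 pairs, 233 of 504 member tests passed (46.2%), beside 27.5% of all gene tests. Clone K differed at 16 of 18 members from each of clone H, clone V and KPC1, beside 49.8%, 54.8% and 56.1% of all genes. In each of these pairs 14 members were higher in clone K, and Hoxa9 and Hoxb9 were lower. Clone M differed from clone T, clone V and KPC1 at 15 members each, beside 40.5%, 57.9% and 55.5% of all genes. From clone H it differed at 14 members, beside 51.1%. Hoxa3 was called in 23 of 28 pairs, Hoxb3 in 21, and Hoxa2, Hoxa5 and Hoxb5 in 19 each, while Hoxa10 and Hoxb13 were called in 2 each.

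In 5 pairs no member passed edgeR's test: clones E and N, clones H and V, clone H and KPC1, clones K and M, and clone V and KPC1. At an unadjusted p under 0.05, edgeR gave 0 members for clones E and N, 0 for clones H and V, 1 for clone H and KPC1, 2 for clones K and M and 1 for clone V and KPC1. DESeq2 and limma also called 0 in each of the 5. Of all genes, 0.388% passed between clones H and V, 1.27% between clones E and N, 2.24% between clones K and M, 2.89% between clone H and KPC1 and 10.7% between clone V and KPC1.

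**Figure D4:**
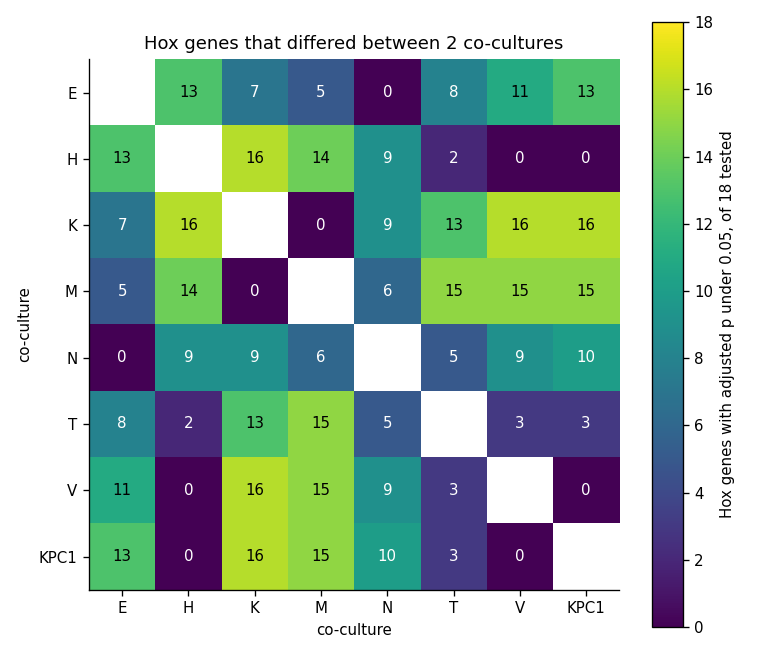
Number of the 18 expressed Hox genes with an adjusted p under 0.05 between each pair of co-cultures, shown on both sides of the diagonal. Clones K and M differ from clones H and V and KPC1 at 14 to 16 genes, in pairs where 49.8% to 57.9% of all genes passed. They differ from each other at 0, beside 2.24% of all genes. Clones H and V and KPC1 also differ from each other at 0, beside 0.388% to 10.7%.

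Some members share exons with antisense genes, and whether reads were counted by strand is not given in the sources used here. Opposite-strand genes cover 52.9% of the Hoxb3 exons and 27.3% of those of Hoxb2, in both cases Hoxb3os, and 25.4% of Hoxa3, 20.4% of Hoxa7, 16% of Hoxa4 and 3.6% of Hoxb5. The antisense genes were low. Hoxb3os averaged 77.2 counts per library and did not pass over the 9 groups (adjusted p = 0.22), and Hoxb5os averaged 78.1 counts. The Hoxa3 partners with rows in the table averaged 12.6 to 49.7 counts. The lowest of these, 5730596B20Rik, passed edgeR's F-test over the 9 groups (adjusted p = 0.00048). Its group means were 1.25 CPM with clone M, 1.01 CPM with clone K, 0.429 CPM with KPC1 and 0.393 CPM with clone H. Its part in the Hoxa3 values was not tested. For these 6 Hox genes reads of the 2 strands cannot be told apart, whereas Hoxa2, Hoxa5, Hoxa9, Hoxb9 and 7 other expressed members share no exon with an antisense gene. Hoxa2 and Hoxa3 also share exons on their own strand with the gene model Gm28308, which had no row in the table.

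Partners and regulators of HOX proteins were measured in the same fits. All 9 TALE genes listed, of the PBX, MEIS and PKNOX families, were tested, 9 passed over the 9 groups, beside 78.6% of all genes, and 8 among the co-cultures, beside 72%. With clone K 5 of 9 passed (4 higher, 1 lower), beside 19.1% of all genes, and with clone V 5 of 9, all lower, beside 58.3%. Meis1, the partner that binds with HOX proteins of the 9 and 10 groups, read 82.5, 85.7, 84.5 and 74.9 CPM in the mono-culture. With clone K it was 90.6, 105, 104 and 113 CPM, with clone V 19.1, 33.8, 27.2 and 24.3 CPM and with KPC1 16.2, 29.2, 19.3 and 22.8 CPM. Meis1 fell by 1.91 on the log2 scale with KPC1 (adjusted p = 2.8e-10) and by 1.65 with clone V (adjusted p = 2.7e-09), while with clone K the value of 0.33 did not pass (adjusted p = 0.16). Meis2, named after its values were seen, gave 159 ± 4.51 CPM in the mono-culture, 198 ± 13.2 CPM with clone K, 62.3 ± 12.1 CPM with clone H and 54.1 ± 8.57 CPM with KPC1. Both genes thus had their highest group mean with clone K and their lowest with KPC1.

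Of 16 Polycomb genes, 13 passed over the 9 groups, beside 78.6% of all genes, and 12 among the co-cultures, beside 72%. For the mean of the 8 co-cultures 9 passed, 4 higher and 5 lower, beside 52.7%, so each share was near that of all genes. Cbx6, a subunit of the complex that reads the repressive mark on histone H3, had both the smallest p and the largest change of the list. It averaged 434 ± 9.47 CPM in the mono-culture, 476 ± 57.3 CPM with clone K, 159 ± 40.3 CPM with clone V and 184 ± 4.76 CPM with KPC1. For the mean of the co-cultures Cbx6 fell by 0.70 on the log2 scale (SE 0.10, adjusted p = 3.2e-07), and its highest group mean was with clone K.

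Of 10 Trithorax and H3K27 demethylase genes, 9 passed over the 9 groups, beside 78.6% of all genes, and 6 among the co-cultures, beside 72%. For the mean of the 8 co-cultures 8 passed, 6 higher and 2 lower, beside 52.7%. Wdr5, a core subunit of the Trithorax methyltransferases, had the smallest p over the 9 groups (adjusted p = 1.3e-13) and rose by 0.57 on the log2 scale (SE 0.06). It averaged 46.3 ± 2.42 CPM in the mono-culture, 47.7 ± 3.12 CPM with clone K and 93.5 ± 6.60 CPM with KPC1. Kdm6b, which removes the Polycomb mark, had the largest change and rose by 0.93 (SE 0.14, adjusted p = 1.2e-06). It read 92.4, 92.3, 100.1 and 106 CPM in the mono-culture, 116, 143, 160.4 and 122 CPM with clone K and 289, 237, 294 and 194 CPM with KPC1. All 32 co-culture libraries of Kdm6b were above the mono-culture.

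**Figure D5:**
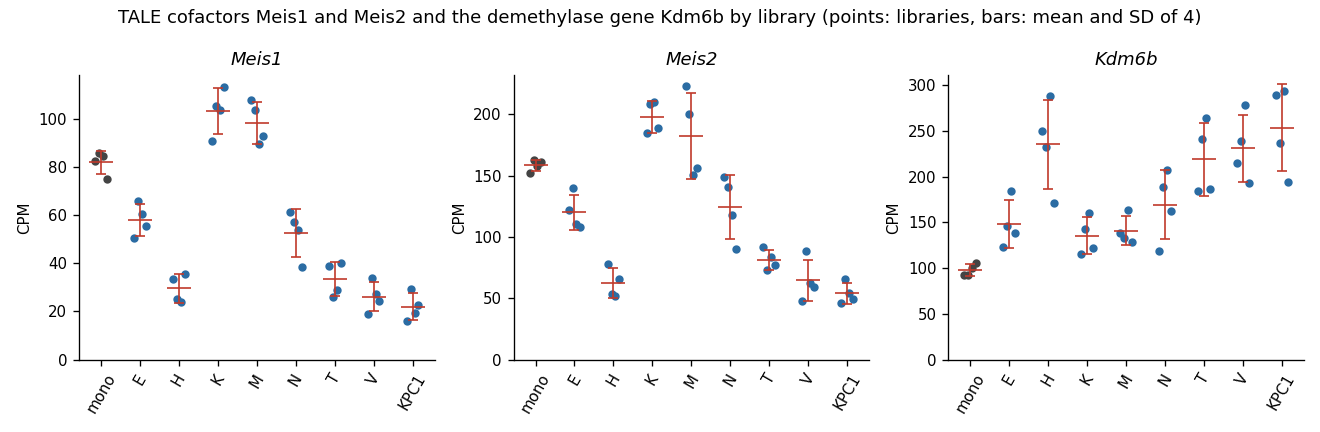
CPM of Meis1, Meis2 and Kdm6b in each library (points) of the 9 groups, with the mean and SD of 4 libraries in red and vertical axes from 0. Meis1 and Meis2 are highest with clones K and M and lowest with clones H, T and V and KPC1, while Kdm6b is lowest in mono-culture at 92.3 to 106 CPM.

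The ParaHox and caudal genes are relatives of the Hox genes outside the clusters. Of 6 listed, Pdx1, the master gene of the pancreatic epithelium, and Cdx2, an intestinal epithelial gene, were tested, and both were at 0 in all 4 mono-culture libraries. Pdx1 read 10 to 290 counts in co-culture libraries, with a group mean of 9.22 ± 4.38 CPM with clone N and 1.38 ± 1.17 CPM with clone V. Cdx2 was at 10.8 ± 4.58 CPM with clone N and at 0 to 2 counts with clone V. The epithelial marker sum had its highest median with clone N (514.5 CPM) and its lowest with clone V (79.8 CPM), and its part in these 2 genes was not tested. Of 10 other transcripts of the clusters listed, 5 had rows and only Hoxb3os was tested, with the result given above.

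The fibroblast marker sum moved with the common Hox order. It was mostly Col1a1, Col1a2, Col3a1 and Vim, with medians over the libraries of 6287, 4739, 4443 and 2781 CPM. No other marker had a median above 1071 CPM, so the sum says little of the rest, which were not compared singly with the Hox order. The summed CPM of all 10 markers, none of them at 0 in any group, was 21240 to 23090 in the mono-culture. It was 19940 to 30180 with clone K and 21730 to 32120 with clone M, while clone E gave 19070 to 28580 and clone N 21610 to 26180. With clone H it was 15130 to 19200, with clone T 16580 to 18340, with clone V 10900 to 21610 and with KPC1 12800 to 16460. With this sum as a covariate in a fit of the 32 co-culture libraries, an alternative chosen after the data were seen, 11 of 18 members still differed among the co-cultures, beside 50.5% of all genes, and Hoxa4, Hoxa6, Hoxa7, Hoxb6 and Hoxb7 no longer passed (adjusted p = 0.073 to 0.33). Hoxa3 and Hoxb3 kept adjusted p of 6.3e-07 and 1.8e-06. The epithelial sum, with medians from 79.8 to 514.5 CPM over the co-cultures, was high with clones N and T and low with clones V and K, and with it as a covariate 16 of 18 members passed, beside 66.6% of all genes. The acinar and islet sum, nearly all of it Cela1, was 6.45 to 9.52 CPM in the mono-culture, 6.93 to 10.4 CPM with clone K and 6.50 to 10.2 CPM with clone M. It was 1.81 to 4.02 CPM with clone H, 2.19 to 4.07 CPM with clone V and 2.00 to 3.08 CPM with KPC1, and its part in the Hox results was not tested.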

How the data were processed

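RNA was extracted with RNeasy, 200 ng per sample was made into poly(A)-selected, strand-specific SureSelect libraries with 14 PCR cycles, and 76 bp paired reads were sequenced on an Illumina NextSeq. The authors deposited read counts for 39017 genes and RPKM values for 37746 genes in all 36 libraries. The submitters' processing notes name STAR, featureCounts, edgeR and the build mm10, and their versions, roles and strand setting are not given in the sources used here. The RPKM values deposited by the authors equalled the counts once these were scaled for length and for library total, with ratios of 0.99967 to 1.0002. All per-sample columns were mapped to a group by their labels.

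Genes that passed edgeR's filterByExpr, 14439 in all, were scaled by TMM and fitted with edgeR 4.0.16 (R 4.3.3) as 1 quasi-likelihood model of 9 groups over 36 libraries. Quasi-likelihood F-tests gave the differences over the 9 groups and among the 8 co-cultures, and contrasts gave the mean of the 8 co-cultures and each co-culture against the mono-culture and the 28 pairs. P-values were adjusted by Benjamini-Hochberg over all genes tested, with a threshold of 0.05. CPM was computed from the deposited counts and the TMM-scaled totals. Library totals of 12532122 to 21985538 counts set the precision of low values, and intervals and floors cover counting error only, since PCR reads are not independent molecules. No 2 libraries of a group agreed within sampling noise (smallest chi-square per degree of freedom 5.48). Alternatives used DESeq2 1.42.0, limma 3.58.1 on log2(RPKM + 1) or log2(RPKM + 0.1), other scalings, filters and thresholds, a replicate term and the removal of each library. The fits were tested on simulated data. Hox genes named with every library were the highest by RPKM in each cluster (given as count ranges where nearly empty), the 5 of smallest p and the highest and lowest called for the mean of the 8 co-cultures. Each single comparison added its highest and lowest called gene among those whose 4 libraries all lay beyond the 4 of the mono-culture. For genes named in that way the separation was part of the choice and is no result. In the other lists the genes of smallest p and largest fold were named. The members, lists and tests were chosen with earlier results of these data known. Hoxd4 was not analysed here, nor were protein sequences, and counts over the 18 expressed members include 1 gene whose own values are not reported here.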

Additional observations from a re-analysis of the deposited data

Results flagged for a closer look

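In each expressed Hox gene and group, the highest or lowest of the 4 libraries was compared with the other 3 by Dixon's gap test at the 95% level, which chance passes in about 1 of 20 sets, and 9 of 162 sets passed. A single library lay high for Hoxa2 with clone N (replicate 1, 10.6 CPM, others 6.82 to 7.43), Hoxa10 with clone M (replicate 4, 16.1 CPM, others 11.5 to 12.3) and Hoxb6 with clone N (replicate 1, 31 CPM, others 25.4 to 26.3). Replicate 2 lay high for Hoxb2 with clone T (26.6 CPM, others 24.8 to 25.1), and with KPC1 for Hoxb4 (25 CPM, others 14.9 to 16.3) and Hoxb5 (18.6 CPM, others 11.4 to 11.8). A single library lay low for Hoxa3 with clone M (replicate 2, 35 CPM, others 38.6 to 39.3), Hoxa5 with KPC1 (replicate 1, 6.01 CPM, others 7.9 to 8.19) and Hoxb2 with clone H (replicate 3, 22.1 CPM, others 25 to 25.6). Without KPC1 replicate 2 the falls of Hoxb4 and Hoxb5 with KPC1 kept their calls.

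The change from the mono-culture differed among the 8 co-cultures for 16 of 18 expressed members, beside 72% of all genes. The test was edgeR's quasi-likelihood F-test of the co-cultures against each other, adjusted over all genes. The adjusted p in the Hoxa cluster was 1e-10 for Hoxa2, 2.3e-13 for Hoxa3, 0.0084 for Hoxa4, 1.4e-11 for Hoxa5, 6e-05 for Hoxa6, 0.0012 for Hoxa7 and 7.8e-06 for Hoxa9. In the Hoxb cluster it was 3.5e-06 for Hoxb2, 7.4e-13 for Hoxb3, 2.6e-08 for Hoxb4, 9.2e-12 for Hoxb5, 1.2e-06 for Hoxb6, 0.00097 for Hoxb7, 3.4e-10 for Hoxb8 and 1.7e-05 for Hoxb9. The value for Hoxa4 was 0.055 without clone K replicate 3.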

How the results depend on the processing

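Every count of called Hox genes stayed within 1.5 times its value under each alternative run, and no log2 fold change of a called gene changed sign. The number expressed was 18 under each of 4 rules on low values. Over the 9 groups 17 to 18 members passed and among the co-cultures 16 to 17, apart from 11 with the fibroblast marker sum as a covariate, where the cause was not tested. The share of all genes ran from 47.2% with no filter to 83.7% with the replicate term over the 9 groups. Among the co-cultures it ran from 42.2% to 78.2% in the same 2 fits, and it was 50.5% with the fibroblast marker sum. For the mean of the 8 co-cultures the count ran from 10 to 14, beside 31.5% of all genes with no filter to 58.8% at an adjusted p under 0.1. It was 14 (2 higher, 12 lower) with library totals alone, beside 51.9% of all genes. There the median log2 fold change of all genes ran from -0.02 with clone M to -0.08 with clone V, beside -0.01 with clone K to 0.01 with clone V under the scaling used throughout. Over the pairs 218 calls were made with no filter and 265 at an adjusted p under 0.1, beside 233. Leaving out 1 library at a time gave 17 to 18 members over the 9 groups, 15 to 17 among the co-cultures, 10 to 12 for the mean and 222 to 242 over the pairs. The same fits gave 4 to 6 with clone E, 15 to 16 with clone H, 7 to 8 with clone K, 5 to 7 with clone M and 7 to 8 with clone N. With clone T they gave 12 to 15, with clone V 15 to 17 and with KPC1 13 to 16.

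Replicate numbers are shared by the groups but nothing in the labels ties them to a culture or day, so the main fit held no replicate term. Serial numbers in the sample titles run through the 8 co-cultures replicate by replicate, and the mono-culture libraries come last as a block of their own. What this order stands for is not given. Differences from the mono-culture cannot be told apart from differences tied to position in that order. Same-numbered co-culture libraries did deviate together in 63 of 112 pairs (correlation over 0.1, median 0.143, lowest -0.519). The median was -0.0231 for libraries of different number over all groups and -0.0233 for same-numbered pairs with the mono-culture. What libraries of 1 number share was not tested. With the replicate block as a term, 18 members passed over the 9 groups, beside 83.7% of all genes, 17 among the co-cultures, beside 78.2%, and 12 for the mean, beside 56.6%. With clone K 9 passed, beside 24.5%, with clone M 8, beside 28.4%, and with KPC1 16, beside 62.5%. These shares of all genes were higher than in the main fit (78.6%, 72%, 52.7%, 19.1%, 23% and 59%). Over the pairs 255 calls were made. With this term 0 calls were lost, and 24 of 36 libraries lay closest to their own number. At this depth no difference between groups could be tested for the 20 members below the count filter.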
